A study of Tachysurus vachellii and Tachysurus fulvidraco x Tachysurus vachelli and Tachysurus fulvidraco with 9 samples.

Results

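The extracellular matrix rows of this liver RNA-seq table comprised collagens, laminins, fibronectin, fibrillins, fibulins, SPARC and PRG4. With them stood enzymes that cross-link or cut the matrix, and their relatives and inhibitors. A row of the table is an assembled gene. Rows with at least 1 TPM (transcripts scaled to a fixed total per library) in at least 3 of the 9 libraries were members where the symbol named one of these families, or where the description read collagen alpha or fibronectin isoform. This gave 140 members of 51225 tested rows. Of these, 126 matched by symbol and 14 by description only, and they carried 68 distinct symbols. A further 29 rows matched by name or description and stayed under the level filter. The rows just outside it were col27a1a, MMP25, Col9a2 and COL12A1, with a third-highest value of 0.94 to 0.99 TPM, and those just inside were TIMP4, FBLN2, COL6A6 and FBN1, at 1.0 to 1.01 TPM.

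The study set a hybrid catfish, Huangyou-1, beside the lines it was crossed from. The groups were liver of juvenile P. vachelli, of juvenile P. fulvidraco, and of juvenile hybrids of a P. fulvidraco female and a P. vachelli male, with 3 libraries each. Poly(A) RNA was sequenced, per the labels. The lines were kept in separate aquaria, so the effects of line and aquarium cannot be told apart. Whether a library holds 1 fish or a pool is not stated. The p-values below weigh a difference against the spread between these libraries only. That spread is pooled over the 3 groups and drawn toward that of other rows.

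The matrix is the protein scaffold between cells. Fibrillar collagens form ropes, collagen IV and laminins form the sheets under epithelium and endothelium, and fibronectin and fibrillins connect these to cell surfaces. In liver, hepatocytes secrete plasma fibronectin into the blood, whereas stellate cells and fibroblasts are the main source of fibrillar collagen. Matrix metalloproteinases (MMP) and ADAMTS proteases cut matrix proteins, and TIMP proteins inhibit MMPs.

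The libraries held 36107 to 41016 rows at 1 TPM or more, with most in hybrid 3. TPM keep no depth, so the depth behind these values is unknown. Hepatocyte markers, of which 14 were measured, summed to 38838 to 47322 TPM per library, and no row was named ALB. Vitellogenin, the egg yolk precursor, made up 5.08% and 1.88% of all TPM in P. fulvidraco 1 and 2, and 0.0055% or less in each of the other libraries. Exocrine pancreas markers, of which 8 were measured, summed to 1080 to 2226 TPM in P. vachelli, 4280 to 5812 TPM in the hybrid and 1889 to 4810 TPM in P. fulvidraco. In bulk tissue, fewer cells of a type and less RNA per cell cannot be told apart. Of the 140 members, 5 were described as another protein. These were both COL4A3BP rows, which encode a lipid transfer protein, and rows of FBN1, FBN3 and LOXL2 described as receptors.

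The parental species differed in many members, and the hybrid mostly lay between them. Levels below are TPM, with ± giving the SD over 3 libraries. Differences are log2 differences on the log2(TPM + 1) scale, with ± giving the standard error, and were called at an adjusted p under 0.05 in limma with Benjamini-Hochberg adjustment over all tested rows. Between the parents, 41 members were higher and 30 lower in P. vachelli, 50.7% of 140, against 54.4% of all tested rows, of which 27.4% were higher and 26.9% lower. Against P. vachelli, 23 members were higher and 17 lower in the hybrid, 28.6%, against 30.0% of all rows, 15.5% higher and 14.6% lower. With quantile normalization that split turned to 20 higher and 25 lower, and the split of all rows turned as well, from 7928 higher and 7460 lower to 6312 and 8381. Against P. fulvidraco, 25 were higher and 15 lower in the hybrid, 28.6%, against 21.8% of all rows, 11.9% higher and 9.88% lower. The hybrid comparisons share the hybrid libraries. Summed by symbol, 37 of the 68 member symbols were called between the parents, 54.4%, against 48.6% of all symbols. For hybrid against P. vachelli 26 were called, 38.2%, against 30.5%, for hybrid against P. fulvidraco 21, 30.9%, against 24.6%, and 3 lay outside the parental range, 4.41%, against 2.98%. Those 3 were COL14A1, above, and PRG4 and HPSE, below. In 5 members, 1 above and 4 below, the hybrid was called on the same side of both parents, 3.57%, against 1.50% of all rows, 0.863% above and 0.636% below. Among the 71 members called between the parents, the hybrid mean lay between the parental means in 57, or 80.3%, against 85.2% of all rows so called. The call counts by role are plotted below, with the members described as another protein left out. Counts by role and by list further on stand against these same shares of all tested rows. For a list that is an unlike measure, since the most abundant row stands for each symbol.

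**Figure D1:**
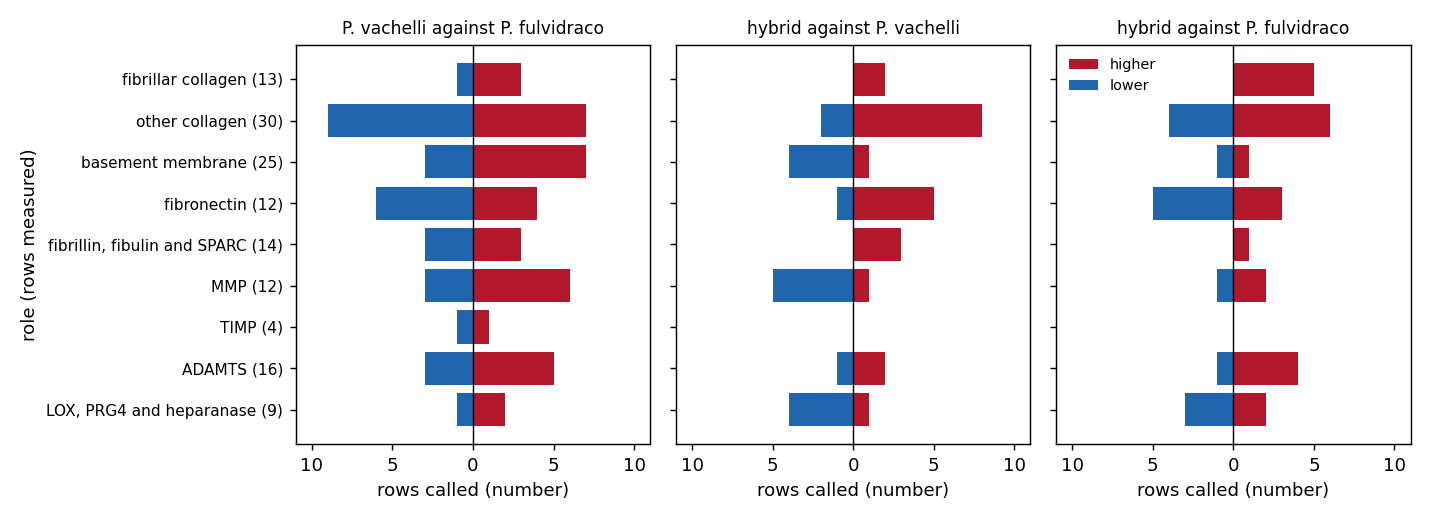
Number of member rows called higher (red, to the right) or lower (blue, to the left) in the first-named group, by role, for each of the 3 comparisons; the number of rows measured in each role stands in brackets. Fibrillar collagen bars lie to the right in both hybrid panels, with 2 and 5 of 13 rows. Among MMP rows, 5 of 12 were lower in hybrids than in P. vachelli. Of all tested rows, 15.5% were higher and 14.6% lower in hybrids than in P. vachelli, and 11.9% were higher than in P. fulvidraco.

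Fibrillar collagens reached their highest mean level in the hybrid, with a wide spread between its libraries. Type I collagen, the main fibril former of connective tissue, is built from the products of COL1A1 and COL1A2, and 7 rows carried these symbols. Summed, they stood at 192, 260 and 183 TPM in P. vachelli 1, 2 and 3, at 205, 315 and 406 TPM in hybrid 1, 2 and 3, and at 148, 175 and 197 TPM in P. fulvidraco 1, 2 and 3. Hybrids 2 and 3 were above every parental library, and hybrid 1 lay among the P. vachelli libraries. Of 13 fibrillar collagen rows, 2 were higher and 0 lower in hybrids than in P. vachelli, and 5 were higher and 0 lower than in P. fulvidraco. These calls are limma's, and at an unadjusted p under 0.05 there was 1 lower row in each comparison. Over all tested rows, 15.5% were called higher and 14.6% lower against P. vachelli, and 11.9% and 9.88% against P. fulvidraco. The 2 of 13 rows higher against P. vachelli were near that share. The median log2 differences of the 13 rows were 0.33 and 0.73, against 0.00 and 0.02 over all tested rows. The type I rows supplied 309 of the 325 TPM of all fibrillar rows in the hybrid mean. RefSeq lists 2 genes named COL1A1 and 1 named COL1A2 in P. vachelli, so the 7 type I rows may hold fewer genes. Whether they are fragments or species forms of the same genes is not known from the table. The counts and medians here are thus of rows, not of independent genes.

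One row was called above both parents, a col1a2 row (DN27224_c1_g3). It stood at 34.5, 45.0 and 31.7 TPM in P. vachelli, 43.0, 62.7 and 70.9 TPM in the hybrid and 29.3, 35.3 and 37.8 TPM in P. fulvidraco. Hybrid 1 was below P. vachelli 2, so the groups overlapped. The hybrid was higher by 0.64 ± 0.20 against P. vachelli (limma, adjusted p = 0.043) and by 0.75 ± 0.20 against P. fulvidraco (adjusted p = 0.031). The first call was lost in 9 and the second in 7 of 19 alternatives. Leaving out P. vachelli 1 or 3, hybrid 2 or 3, or P. fulvidraco 2 or 3 ended the first (adjusted p = 0.0522 to 0.133), and leaving out hybrid 2 or 3 or P. fulvidraco 1 or 2 ended the second (adjusted p = 0.0717 to 0.0922). The most abundant COL1A1 row (DN20606_c0_g1) stood at 35.7 ± 6.5 TPM in P. vachelli, 57.3 ± 18 TPM in hybrids and 29.7 ± 2.8 TPM in P. fulvidraco. It was called against P. fulvidraco (0.88 ± 0.23, limma adjusted p = 0.026), but not against P. vachelli (0.63 ± 0.23, adjusted p = 0.068). The first call was lost in 6 of the 19 alternatives, among them without hybrid 2 (adjusted p = 0.0785), hybrid 3 (adjusted p = 0.0663), P. fulvidraco 1 (adjusted p = 0.0779), P. fulvidraco 2 (adjusted p = 0.0702) or both of the last (adjusted p = 0.255). The second comparison passed in 4, among them without hybrid 1 (adjusted p = 0.0073). A row named COL1A2 but described as collagen alpha-1(I) (DN16187_c0_g1) was called against P. vachelli only, with 17.5 ± 2.8 TPM there and 38.3 ± 13 TPM in the hybrid (1.04 ± 0.27, limma adjusted p = 0.02). P. fulvidraco was at 27.1 ± 7.4 TPM. That call was lost without P. vachelli 1 (adjusted p = 0.0601), P. vachelli 3 (adjusted p = 0.067), hybrid 2 (adjusted p = 0.0509) or hybrid 3 (adjusted p = 0.0521). Summing the rows named COL1A2 gave 0.55 ± 0.24 against P. vachelli (adjusted p = 0.11) and 0.71 ± 0.24 against P. fulvidraco (adjusted p = 0.0566), neither called. By symbol sum, COL14A1 was instead the matrix symbol called above both parents. It was higher by 1.32 ± 0.43 against P. vachelli (limma, adjusted p = 0.0436) and 1.70 ± 0.43 against P. fulvidraco (adjusted p = 0.0202). Its hybrid 1, at 5.84 TPM, was below P. vachelli 3, at 6.5 TPM.

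In another 3 type I rows hybrid 1 lay among the parental libraries. A second COL1A1 row (DN20606_c0_g4) was at 25.1, 37.1 and 27.2 TPM in P. vachelli, 31.8, 49.9 and 57.2 TPM in the hybrid and 21.9, 26.6 and 28.3 TPM in P. fulvidraco. A Col1a2 row described as collagen alpha-1(I) (DN27224_c1_g1) was at 21.0, 26.2 and 18.2 TPM, then 19.1, 29.9 and 39.2 TPM, then 13.7, 14.1 and 16.1 TPM. Both were called against P. fulvidraco (0.80 ± 0.23, limma adjusted p = 0.037, and 0.90 ± 0.24, adjusted p = 0.028), and these calls were lost in 9 and 7 of the 19 alternatives, including without any single P. fulvidraco library and without hybrid 2 or 3. A col1a2 row (DN17359_c0_g1) at 34.2, 47.9 and 33.4 TPM, then 29.2, 47.5 and 63.5 TPM, then 22.2, 27.4 and 30.4 TPM was not called in any comparison. Between the parents, the COL1A1 row DN27224_c1_g2 was higher in P. vachelli, 31.1 ± 7.4 against 15.7 ± 1.9 TPM (0.92 ± 0.32, adjusted p = 0.037).

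The minor fibril collagens, which nucleate fibrils and set their width, were much lower. A Col5a1 row described as collagen alpha-1(V) (DN16682_c2_g1) stood at 2.10 ± 0.83 TPM in P. vachelli, 2.43 ± 0.18 TPM in hybrids and 0.607 ± 0.11 TPM in P. fulvidraco, lower in P. fulvidraco than in either of the others. The other Col5a1 row, described as collagen alpha-1(XI) (DN26808_c0_g1), was more abundant and differed less. It stood at 5.54 ± 0.82 TPM in P. vachelli, 5.81 ± 1.7 TPM in hybrids and 3.36 ± 0.14 TPM in P. fulvidraco. It was called between the parents (0.58 ± 0.20, limma adjusted p = 0.036). The difference of hybrid and P. fulvidraco did not pass (0.61 ± 0.20, adjusted p = 0.0598). COL5A2 was at 4.03, 3.80 and 3.32 TPM in the same order and was not called in any comparison. The col27a1b row was listed at 0 in all P. vachelli libraries, with 1.59 ± 1.4 TPM in hybrids and 4.13 ± 0.99 TPM in P. fulvidraco.

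The order of the hybrid libraries was shared across collagens. In all 9 fibrillar rows with a mean of at least 2 TPM, hybrid 3 was the highest and hybrid 1 the lowest of the hybrid libraries. In the same 9 rows P. vachelli 2 was the highest of its group. P. fulvidraco 1, the library richest in vitellogenin, was the lowest of its group in all of them. Most of these are type I rows, which may hold fewer genes. Over the 80 members at that level, hybrid 3 was highest in 61, or 76.2%, against 46.4% of 27409 rows at that level, and hybrid 1 was lowest in 52, or 65%, against 40.5%. Without hybrid 1, 10 members in place of 5 were outside the parental range, 7 of them above. Over all tested rows, 635 in place of 768 were then outside it, 425 of them above. Hybrid 1 was the lowest hybrid library in most members at that level, so leaving it out raises the hybrid mean in them. Stellate cell and fibroblast markers, 12 of 16 measured, summed to 451 to 544 TPM in P. vachelli, 615 to 741 TPM in the hybrid and 553 to 737 TPM in P. fulvidraco. Hybrid 3 was again the highest of its group and hybrid 1 the lowest. ACTA2, smooth muscle actin, made up most of that sum, at 286 ± 28, 475 ± 24 and 459 ± 88 TPM. DES, desmin, was at 1.36 ± 0.32, 9.28 ± 5.2 and 7.15 ± 3.2 TPM. Over the 12 markers the median log2 difference of hybrid and P. vachelli was -0.12. DCN, the matrix proteoglycan decorin, was at 71.6 ± 15, 69.3 ± 20 and 59.1 ± 2.1 TPM, and pdgfra, a growth factor receptor of these cells, at 4.10 ± 0.59, 3.16 ± 0.45 and 1.78 ± 0.35 TPM. The part of these markers in the collagen levels was not tested.

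**Figure D2:**
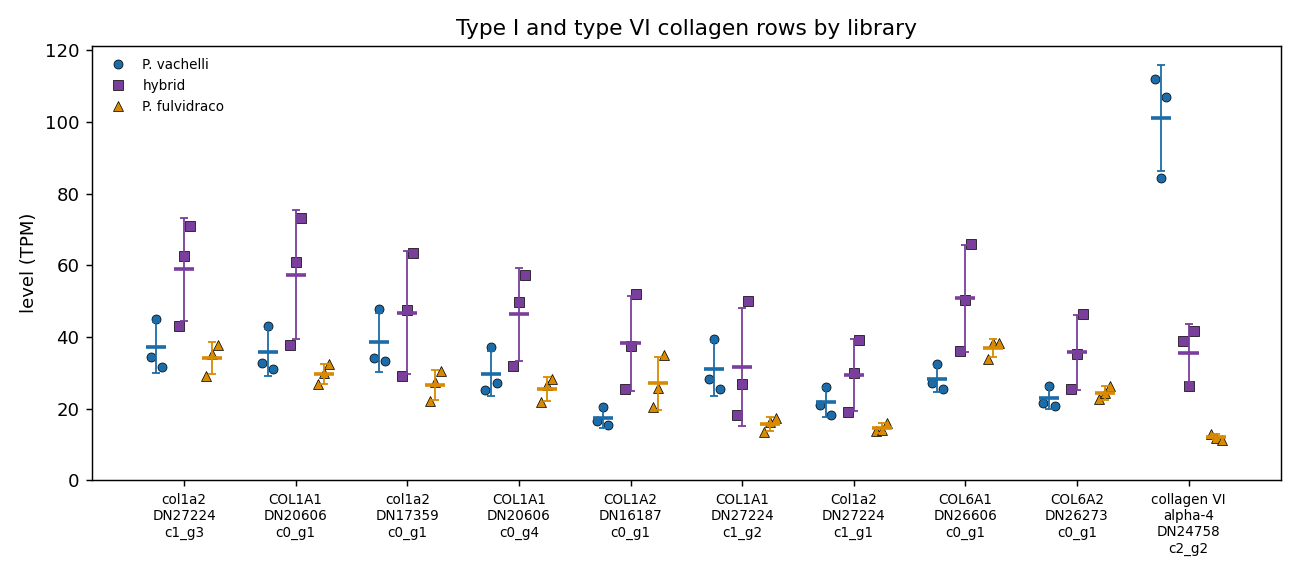
Level in TPM (linear axis from 0) of the 7 type I collagen rows and 3 collagen VI rows in each library; symbols are libraries, ordered 1 to 3 from left to right within a group, thick bars group means and thin bars the SD of 3 libraries. The hybrid squares spread widely in the type I rows, from 43.0 to 70.9 TPM in col1a2 DN27224_c1_g3, while the alpha-4(VI) row descends from 101 TPM in P. vachelli to 12.1 TPM in P. fulvidraco.

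Other collagens diverged row by row. Of 30 rows, 7 were higher and 9 lower in P. vachelli than in P. fulvidraco, 8 were higher and 2 lower in hybrids than in P. vachelli, and 6 were higher and 4 lower in the hybrid than in P. fulvidraco. Over all tested rows, these calls made up 27.4% and 26.9%, then 15.5% and 14.6%, then 11.9% and 9.88%. Collagen VI, which forms beaded microfilaments around cells, supplied the most abundant ones. The highest was a row without symbol described as a partial collagen alpha-4(VI) chain (DN24758_c2_g2). It stood at 112, 84.2 and 107 TPM in P. vachelli, 38.9, 26.3 and 41.6 TPM in the hybrid and 13.1, 11.8 and 11.3 TPM in P. fulvidraco. The 3 groups did not overlap, and the hybrid lay between the parents. P. vachelli was higher than P. fulvidraco by 2.96 ± 0.18 (limma, adjusted p = 3.13e-06). The hybrid was 0.352 of the P. vachelli mean and 2.95 times that of P. fulvidraco, both called (-1.50 ± 0.18, adjusted p = 0.00048; 1.46 ± 0.18, adjusted p = 0.00089).

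The COL6A1 and COL6A2 rows, for the chains shared by all collagen VI trimers, had another order. COL6A1 stood at 27.2, 32.4 and 25.4 TPM in P. vachelli, 36.1, 50.3 and 65.9 TPM in the hybrid and 34.0, 38.2 and 38.4 TPM in P. fulvidraco. All hybrid libraries were above P. vachelli, and hybrid 1 was within the P. fulvidraco range. The hybrid was higher than P. vachelli by 0.78 ± 0.20 (limma, adjusted p = 0.017), a call lost without P. vachelli 1 (adjusted p = 0.0541) or P. vachelli 3 (adjusted p = 0.0613). COL6A2 was at 23.0 ± 2.9, 35.8 ± 10 and 24.4 ± 1.9 TPM in P. vachelli, hybrid and P. fulvidraco, and the difference of hybrid and P. vachelli did not pass (0.58 ± 0.20, adjusted p = 0.053), except in 5 of the 19 alternatives, among them without hybrid 1 (adjusted p = 0.0093). In both rows, hybrid 1 was the lowest and hybrid 3 the highest of the hybrid libraries.

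Rows of the longer collagen VI chains moved both ways. A row named COL6A3 and described as collagen alpha-6(VI) (DN15484_c0_g2) was at 8.24 ± 0.40 TPM in P. vachelli, 22.4 ± 7.3 TPM in hybrids and 19.9 ± 2.0 TPM in P. fulvidraco, lower in P. vachelli than in either (limma, adjusted p = 0.0015 against P. fulvidraco and 0.0022 against the hybrid). A COL6A6 row (DN27897_c0_g3) was likewise lowest in P. vachelli, at 2.45, 7.48 and 7.67 TPM in P. vachelli, hybrid and P. fulvidraco. The COL6A3 row described as alpha-3(VI) (DN27751_c1_g1) was below both parents, at 7.02, 7.82 and 10.8 TPM in hybrid libraries, against 11.2, 15.4 and 13.4 TPM in P. vachelli and 13.5, 13.2 and 16.2 TPM in P. fulvidraco. No hybrid library reached a parental one. The calls (-0.60 ± 0.18, limma adjusted p = 0.032, and -0.70 ± 0.18, adjusted p = 0.024) were lost in 7 and 5 of the alternatives. Leaving out P. vachelli 2 or 3 or hybrid 1 or 2 ended the first (adjusted p = 0.0864 to 0.107), and leaving out hybrid 1 or 2 or P. fulvidraco 2 or 3 ended the second (adjusted p = 0.0505 to 0.0736). Summing the 4 rows named COL6A3, which go both ways, gave a difference from P. vachelli of 0.39 ± 0.16, not called (adjusted p = 0.096).

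Several collagens were found on the side of 1 parent. SSP2, a row described only as a collagen alpha-1 chain, stood at 11.6, 7.93 and 6.31 TPM in P. vachelli and 5.80, 3.68 and 5.04 TPM in the hybrid, and was listed at 0 in every P. fulvidraco library. A Col12a1 row (DN22174_c1_g1), for a collagen that coats type I fibrils, was at 3.88 ± 0.54, 2.47 ± 0.48 and 1.06 ± 0.22 TPM in P. vachelli, hybrid and P. fulvidraco. The rows described as collagen IX, for a cartilage fibril partner in other vertebrates, lay on the opposite side. COL9A3 (DN9044_c0_g1), for example, was at 0.16 TPM in P. vachelli, 0.31 TPM in hybrids and 1.65 TPM in P. fulvidraco. By symbol, the rows named COL9A1 went the other way, summing to 6.57, 2.52 and 2.45 TPM in that order. Their sum was called between the parents (1.06 ± 0.34, limma adjusted p = 0.027). COL13A1 (DN26534_c1_g1), a transmembrane collagen, gave no call, with a mean of 11.6 TPM in each group.

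The most abundant basement membrane row was a laminin alpha chain, the subunit that binds cell receptors. Of 25 rows, 7 were higher and 3 lower in P. vachelli than in P. fulvidraco, and 1 was higher and 4 lower in hybrids than in P. vachelli. The shares over all tested rows were 27.4% and 26.9%, and 15.5% and 14.6%. Against P. fulvidraco the hybrid had 1 row higher and 1 lower. Lama4, the laminin chain of vessel walls, stood at 35.9, 46.5 and 42.8 TPM in P. vachelli, 21.8, 26.2 and 32.4 TPM in the hybrid and 26.9, 19.6 and 23.8 TPM in P. fulvidraco. Every P. vachelli library was above all others, and hybrid and P. fulvidraco overlapped. P. vachelli was higher than P. fulvidraco by 0.81 ± 0.17 (limma, adjusted p = 0.0039), and the hybrid was lower than P. vachelli (-0.63 ± 0.17, adjusted p = 0.024). The latter call was lost without P. vachelli 2 (adjusted p = 0.08), P. vachelli 3 (adjusted p = 0.0711), hybrid 1 (adjusted p = 0.0716) or hybrid 2 (adjusted p = 0.0583).

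Lama3, an alpha chain of epithelial laminins, had 3 rows on the P. vachelli side. The most abundant (DN25707_c0_g1) was at 7.85, 9.05 and 9 TPM in P. vachelli, 2.22, 2.24 and 2.63 TPM in the hybrid and 0.75, 1.36 and 1.07 TPM in P. fulvidraco. The groups did not overlap, and the hybrid lay between the parents, nearer to P. fulvidraco. It was at 0.274 of the P. vachelli mean (-1.52 ± 0.17, limma adjusted p = 0.00032). Against P. fulvidraco it stood at 2.23 times the mean (0.72 ± 0.17, adjusted p = 0.018), a call lost in 3 of 19 alternatives. Another Lama3 row (DN7740_c0_g1) was at 3.28 ± 0.11 TPM in P. vachelli, 0.113 ± 0.20 TPM in hybrids and 0.247 ± 0.43 TPM in P. fulvidraco. Among the 13 members found in P. vachelli only, it had the lowest ratio of hybrid to P. vachelli, 0.0345. LAMB1, a beta chain of most laminins (DN26717_c0_g3), was reversed, with 4.59 ± 0.60 TPM in P. vachelli, 5.74 ± 1.6 TPM in hybrids and 7.65 ± 0.70 TPM in P. fulvidraco (P. vachelli minus P. fulvidraco -0.63 ± 0.19, adjusted p = 0.019). That call was lost without P. vachelli 1 (adjusted p = 0.0512), P. vachelli 3 (adjusted p = 0.0644) or P. fulvidraco 3 (adjusted p = 0.0587), and with the LAMB1 rows summed (adjusted p = 0.174). The lamc1 row, for the common gamma chain, was lower in P. vachelli than in both others at 0.727, 1.51 and 1.63 TPM. COL4A5, described as collagen alpha-1(IV), the backbone of the sheet, stood at 5.51 ± 0.22, 7.36 ± 4.3 and 4.42 ± 1.3 TPM and was not called. Its hybrid values were 12.3, 4.24 and 5.54 TPM, so hybrid 1, the lowest library in fibrillar collagens, was the highest here.

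Endothelial markers, 11 of 15 measured, summed to 50.8 to 58.0 TPM in P. vachelli, 32.8 to 50.2 TPM in the hybrid and 32.2 to 40.7 TPM in P. fulvidraco. Like Lama4, the sum was highest in the P. vachelli libraries, though not every marker was. In the hybrid, Lama4 and the sum had the same order of libraries, with hybrid 1 lowest and hybrid 3 highest. P. vachelli 2 was the highest of its group in both. Within P. fulvidraco the 2 ran apart, with library 1 highest of its group in Lama4, at 26.9 TPM, and lowest in the sum, at 32.2 TPM. Of the 11 markers, 6 were called higher and 2 lower in P. vachelli than in P. fulvidraco, with a median log2 difference of 0.54. Over all tested rows, 27.4% were higher and 26.9% lower. Stab1, a scavenger receptor of sinusoidal endothelium, was at 7.83, 3.34 and 2.04 TPM, while CDH5, the adhesion protein of endothelial junctions, was at 1.39, 3.01 and 4.42 TPM. Their part in the laminin levels was not tested.

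Fibronectin supplied the most abundant members and the sharpest split by parent. Fibronectin is a soluble plasma protein and also assembles into fibrils that bind integrins and collagen. Of 12 rows so described, 5 belonged to P. fulvidraco alone among the parents, and 2 to P. vachelli alone. A row counted as found in 1 parent when all its libraries had at least 1 TPM, all those of the other parent less than 1 TPM, and the means differed at least 10-fold. By this measure 11 of the 140 members, 7.86%, were found in P. fulvidraco only and 13, 9.29%, in P. vachelli only, against 11.2% and 11.7% of all tested rows.

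The most abundant fibronectin row (DN13434_c0_g2, without symbol) stood at 0.29, 0 and 0.30 TPM in P. vachelli, 858, 824 and 886 TPM in the hybrid and 1591, 1584 and 1746 TPM in P. fulvidraco. It was near 0 in 1 parent, and the hybrid was at 0.522 of the other. The hybrid was lower than P. fulvidraco (-0.94 ± 0.11, limma adjusted p = 0.00071), a call lost with a pseudocount of 0.1 (adjusted p = 0.193). The difference itself stayed at -0.94 there, and its standard error rose to 0.47. FN1 row DN12737_c0_g1 was at 0.45, 0 and 0 TPM in P. vachelli, 676, 683 and 681 TPM in the hybrid and 1206, 1304 and 1375 TPM in P. fulvidraco. Its call of hybrid against P. fulvidraco (-0.93 ± 0.14, limma adjusted p = 0.0027) was likewise lost with a pseudocount of 0.1 (adjusted p = 0.295). Again the difference stayed at -0.93, and the standard error rose to 0.58. Fn1 row DN12306_c0_g1 was at 0, 0 and 0.08 TPM in P. vachelli, 542, 561 and 617 TPM in the hybrid and 1000.4, 952 and 1043 TPM in P. fulvidraco. Over the 5 rows found in P. fulvidraco only, the ratio of hybrid to P. fulvidraco ran from 0.498 to 0.574, with a median of 0.525. All 5742 tested rows of that kind had a median of 0.470 with quartiles of 0.312 and 0.660.

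The reverse rows were far less abundant. The fn1 row DN12888_c0_g1 was at 20.1 ± 3.5 TPM in P. vachelli and 8.92 ± 7.5 TPM in the hybrid, and DN28133_c5_g1 was at 4.80 ± 0.78 and 1.86 ± 0.41 TPM. Both were listed at 0 in P. fulvidraco. One abundant row was found in all groups, FN1 DN28133_c5_g2, with 430, 426 and 397 TPM in P. vachelli, 365, 351 and 346 TPM in the hybrid and 591, 576 and 510 TPM in P. fulvidraco. The groups did not overlap, with the hybrid lowest. The hybrid was lower than P. fulvidraco (-0.65 ± 0.08, limma adjusted p = 0.001), and its difference from P. vachelli did not pass (-0.24 ± 0.08, adjusted p = 0.058). That comparison passed in 6 of 19 alternatives, such as quantile normalization (adjusted p = 0.0196), and the sum of the 9 rows under the symbol had the opposite sign (1.93, adjusted p = 2.56e-07).

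Summed over the 12 rows, fibronectin stood at 488, 492 and 454 TPM in P. vachelli, 2560, 2527 and 2693 TPM in the hybrid and 4627, 4579 and 4833 TPM in P. fulvidraco. A gene cut into fragments enters such a sum once per fragment, and forms of a species that the assembly did not keep apart or did not hold are not seen, so these sums do not compare the amount of fibronectin between species. The RefSeq annotation of P. vachelli (assembly HZAU_Pvac_v1) lists 2 genes named fn1, while the table had 9 rows under that symbol.

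**Figure D3:**
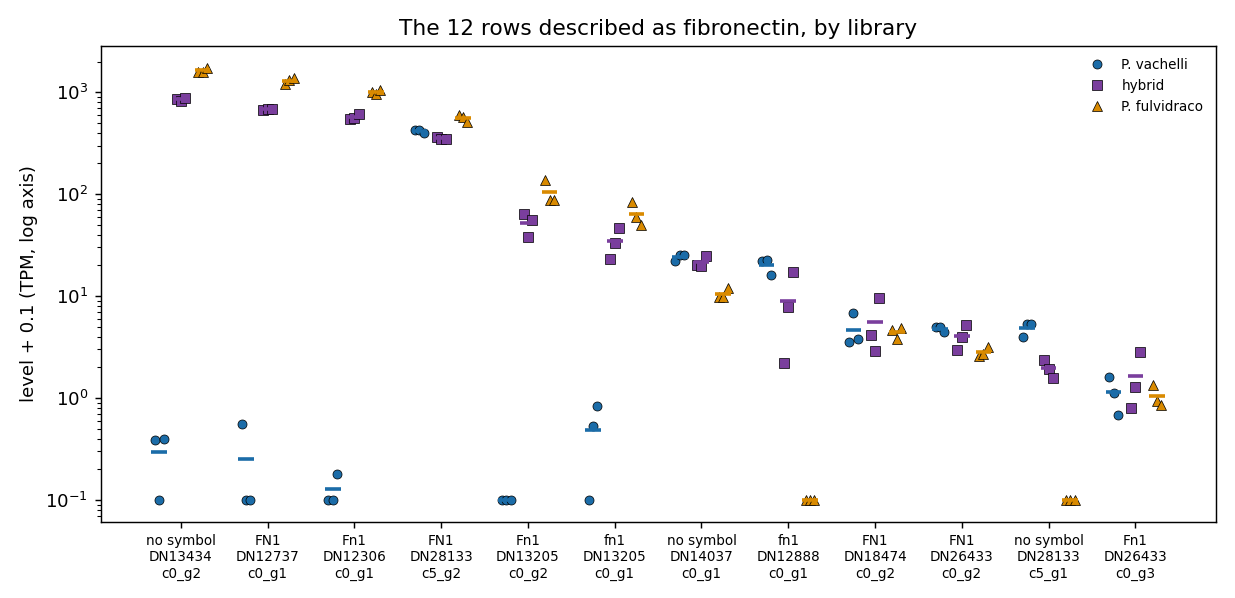
Level plus 0.1 in TPM (log axis) of the 12 fibronectin rows in each library, in order of mean level; symbols are libraries, ordered 1 to 3 from left to right within a group, and bars are group means. In the rows found in P. fulvidraco only, the P. vachelli circles lie near the bottom of the axis and the hybrid squares just under the P. fulvidraco triangles, as in DN13434_c0_g2 with means of 0.197, 856 and 1640 TPM.

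Elastic fibre proteins and SPARC were among the higher members. Of 14 rows, 3 were higher and 3 lower in P. vachelli than in P. fulvidraco, and the hybrid had 3 rows higher than P. vachelli and 1 higher than P. fulvidraco. Among all tested rows, the shares were 27.4% and 26.9% between the parents. In the hybrid, 15.5% were higher than in P. vachelli and 11.9% higher than in P. fulvidraco. FBLN5, fibulin-5, which helps to assemble elastic fibres, stood at 48.0, 43.8 and 42.3 TPM in P. vachelli, 84.5, 76.6 and 86.4 TPM in the hybrid and 84.0, 100 and 122 TPM in P. fulvidraco. Every hybrid and P. fulvidraco library was above every P. vachelli library, while hybrid and P. fulvidraco overlapped. P. vachelli was lower than P. fulvidraco (-1.16 ± 0.13, limma adjusted p = 0.00013), and the hybrid was higher than P. vachelli (0.87 ± 0.13, adjusted p = 0.0017).

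Fbn1 (DN27730_c0_g2), fibrillin-1 of the microfibrils, had the opposite order, with 17.2, 24.3 and 16.8 TPM in P. vachelli, 12.4, 18.7 and 18.9 TPM in the hybrid and 6.38, 6.56 and 6.13 TPM in P. fulvidraco. The hybrid overlapped P. vachelli and stood at 2.63 times the P. fulvidraco mean (1.24 ± 0.19, limma adjusted p = 0.0027). Without P. fulvidraco 1 and 2, the vitellogenin-rich libraries, that adjusted p was 0.0585. The fbln1 row, fibulin-1 of basement membranes and elastic fibres, was at 1.86 ± 0.20 TPM in P. vachelli, 4.80 ± 2.4 TPM in hybrids and 4.53 ± 0.46 TPM in P. fulvidraco. SPARC, a collagen-binding matricellular protein, was at 62.3 ± 7.3, 88.0 ± 21 and 71.1 ± 5.5 TPM, with no call. Without hybrid 1, it was called against P. vachelli (limma, adjusted p = 0.0064) and P. fulvidraco (adjusted p = 0.0294).

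Proteoglycan 4 and heparanase lay below both parents in the hybrid, in 3 rows. Proteoglycan 4, also called lubricin, is a secreted mucin-like glycoprotein known as a joint lubricant and also made by liver. Heparanase cleaves the heparan sulfate chains of matrix and cell surface proteoglycans. Prg4 row DN25329_c0_g1 stood at 18.4, 56.7 and 39.0 TPM in P. vachelli, 5.64, 10.4 and 8.99 TPM in the hybrid and 42.8, 28.9 and 53.1 TPM in P. fulvidraco. Every hybrid library was below every parental library, and the P. vachelli libraries were spread widely. The hybrid mean was 0.219 of that of P. vachelli and 0.201 of that of P. fulvidraco (-1.96 ± 0.40, limma adjusted p = 0.0068; -2.18 ± 0.40, adjusted p = 0.0063). The second PRG4 row (DN16700_c3_g2) had the same order, with 10.6, 27.8 and 17.7 TPM, then 3.05, 4.98 and 2.22 TPM, then 26.4, 13.4 and 23.0 TPM. Its differences were -2.11 ± 0.38 against P. vachelli and -2.31 ± 0.38 against P. fulvidraco (limma, adjusted p = 0.0038 for each). The RefSeq annotation lists 2 prg4 genes, and whether these rows are fragments of 1 gene is not known from the table.

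HPSE row DN26641_c1_g2 stood at 14.6, 11.8 and 16.6 TPM in P. vachelli, 5.62, 4.4 and 4.71 TPM in the hybrid and 14.2, 11.7 and 16.6 TPM in P. fulvidraco. The parental libraries covered nearly the same range, and the hybrid libraries were all below it. The hybrid mean was 0.343 of that of P. vachelli and 0.347 of that of P. fulvidraco (-1.37 ± 0.17, limma adjusted p = 0.00055; -1.35 ± 0.17, adjusted p = 0.00097), and the parents differed by 0.02 ± 0.17. The calls of HPSE and of PRG4 row DN16700_c3_g2 held in every alternative run. Of Prg4 row DN25329_c0_g1, the call against P. fulvidraco was lost without P. fulvidraco 1 and 2 (adjusted p = 0.0566).

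**Figure D4:**
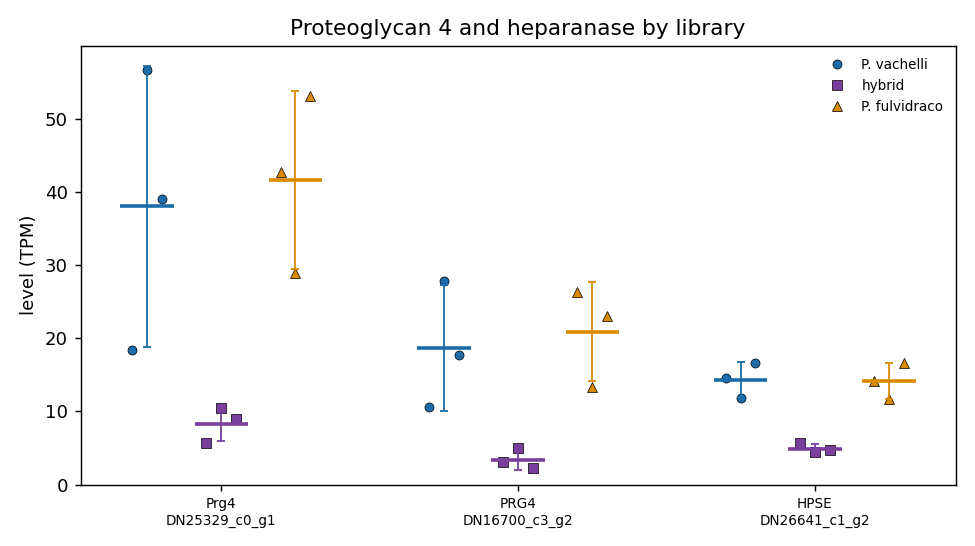
Level in TPM (linear axis from 0) of both proteoglycan 4 rows and the heparanase row in each library; symbols are libraries, ordered 1 to 3 from left to right within a group, thick bars group means and thin bars the SD of 3 libraries. In each row the hybrid squares lie under all parental symbols, as in HPSE with hybrid libraries at 4.4 to 5.62 TPM and parental ones at 11.7 to 16.6 TPM.

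The other 6 rows of this role were low. The loxl2b row, for a lysyl oxidase that cross-links collagen IV, was at 4.24, 4.98 and 3.92 TPM in P. vachelli, 1.77, 2.19 and 3.30 TPM in the hybrid and 0.48, 0.77 and 0.62 TPM in P. fulvidraco. The groups did not overlap, and P. vachelli was higher than P. fulvidraco by 1.73 ± 0.21 (limma, adjusted p = 0.00022). The call of hybrid against P. vachelli (-0.67 ± 0.21, adjusted p = 0.043) was lost in 12 of the alternatives, including without any single library other than hybrid 3 (adjusted p = 0.0524 to 0.137). LOX itself, the cross-linker of fibrillar collagen and elastin, was lower in P. vachelli, at 0.523 ± 0.045 TPM, than in the hybrid at 1.93 ± 0.48 TPM and P. fulvidraco at 2.22 ± 0.46 TPM. HPSE2, the inactive relative of heparanase, was at 1.50, 0.84 and 0.123 TPM in P. vachelli, hybrid and P. fulvidraco.

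More metalloproteinase rows were higher than lower in P. vachelli, and the most abundant were among the higher ones. The 12 MMP rows summed to 139, 147 and 151 TPM in P. vachelli, 67.2, 80.0 and 98.6 TPM in the hybrid and 62.9, 64.6 and 71.0 TPM in P. fulvidraco. An MMP13 row near 0 in P. fulvidraco (DN18212_c1_g1) supplied 37.7 of the 146 TPM of the P. vachelli mean. As for fibronectin, such a sum does not compare amounts between species. By row, 6 were higher and 3 lower in P. vachelli than in P. fulvidraco, and 1 was higher and 5 lower in hybrids than in P. vachelli. The shares over all tested rows were 27.4% and 26.9%, and 15.5% and 14.6%. The median log2 difference between the parents was 0.48 over the MMP rows and -0.01 over all tested rows. Several of these rows share a symbol. With the rows of a symbol summed, MMP2, MMP13 and MMP14 were called higher and MMP23 lower in P. vachelli than in P. fulvidraco. MMP15 and MMP19 were not called. MMP2, gelatinase A, which degrades collagen IV and denatured collagen, stood at 59.5, 53.5 and 66.3 TPM in P. vachelli, 27.6, 37.1 and 34.2 TPM in the hybrid and 33.6, 36.8 and 40.9 TPM in P. fulvidraco. P. vachelli was above all others, and hybrid and P. fulvidraco overlapped. The hybrid was at 0.552 of the P. vachelli mean (-0.84 ± 0.13, limma adjusted p = 0.002). P. vachelli was higher than P. fulvidraco by 0.67 ± 0.13 (adjusted p = 0.0027), a call lost without P. fulvidraco 1 and 2 (adjusted p = 0.0704).

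MMP14, a membrane-bound protease that activates MMP2 (DN25752_c0_g1), descended from P. vachelli to P. fulvidraco. It was at 15.4, 18.7 and 17.2 TPM in P. vachelli, 7.51, 9.77 and 10.1 TPM in the hybrid and 3.43, 2.42 and 2.56 TPM in P. fulvidraco. The groups did not overlap, and all 3 differences were called (2.25 ± 0.16 between the parents, limma adjusted p = 7.68e-06; hybrid minus P. vachelli -0.84 ± 0.16, adjusted p = 0.0047; hybrid minus P. fulvidraco 1.41 ± 0.16, adjusted p = 0.00054). The other 3 rows named MMP14 were low, and 1 of them went the other way. DN19149_c3_g4, with no protein named in its description, was at 0, 2 and 0 TPM in P. vachelli, 1.74, 1.63 and 6.59 TPM in the hybrid and 6.01, 2.53 and 5.41 TPM in P. fulvidraco, lower in P. vachelli than in P. fulvidraco (-1.91 ± 0.56, limma adjusted p = 0.019). DN24400_c1_g3, described as MMP15, was at 2.84, 2.04 and 1.38 TPM, and DN20428_c0_g2 at 2.02, 1.79 and 1.80 TPM. With the 4 rows summed, neither hybrid difference was called (-0.49 ± 0.24 against P. vachelli, adjusted p = 0.157; 0.55 ± 0.24 against P. fulvidraco, adjusted p = 0.124).

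MMP13, a collagenase, had a row (DN18212_c1_g1) at 37.6, 39.4 and 36.1 TPM in P. vachelli and 18.2, 13.8 and 19.6 TPM in the hybrid. In P. fulvidraco it was listed at 0, 0 and 0.06 TPM, and the hybrid mean was 0.457 of that of P. vachelli. The other MMP13 row (DN21627_c0_g1) was present in all groups, at 9.79 ± 0.81, 5.05 ± 2.4 and 4.43 ± 0.64 TPM, and was highest in P. vachelli (against P. fulvidraco 1 ± 0.27, limma adjusted p = 0.014; hybrid minus P. vachelli -0.91 ± 0.27, adjusted p = 0.034). A row named MMP2 but described as MMP9-like (DN23362_c0_g1), gelatinase B of leukocytes, was at 13.2 ± 1.6, 6.12 ± 3.2 and 6.28 ± 1.3 TPM. Its call between the parents was lost without P. vachelli 2 or 3 or P. fulvidraco 1 or 2 (adjusted p = 0.0615 to 0.0836), and that of hybrid against P. vachelli without any single P. vachelli library or without hybrid 2 (adjusted p = 0.0569 to 0.0874).

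MMP23, a membrane-anchored protease, had both of its rows on the P. fulvidraco side. The more abundant (DN26204_c0_g1) was at 0.22 ± 0.02 TPM in P. vachelli, 1.65 ± 0.42 TPM in hybrids and 4.11 ± 0.44 TPM in P. fulvidraco. MMP9 and MMP13 are also made by neutrophils. The 5 measured neutrophil markers other than MMP13 summed to 34.0 to 36.0 TPM in P. vachelli, 23.9 to 34.7 TPM in the hybrid and 19.5 to 25.1 TPM in P. fulvidraco. Ncf1, a subunit of the neutrophil oxidase, made up most of that sum in P. vachelli. It was at 25.3 ± 0.60, 13.6 ± 2.0 and 7.72 ± 1.3 TPM, whereas Cybb, another subunit, was at 1.76, 3.66 and 3.48 TPM. Of the 6 markers with MMP13 included, 2 were called higher and 1 lower in P. vachelli than in P. fulvidraco. Over all tested rows these shares were 27.4% and 26.9%. The median log2 difference of the 6 markers was 0.04. Their part in the MMP levels was not tested.

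**Figure D5:**
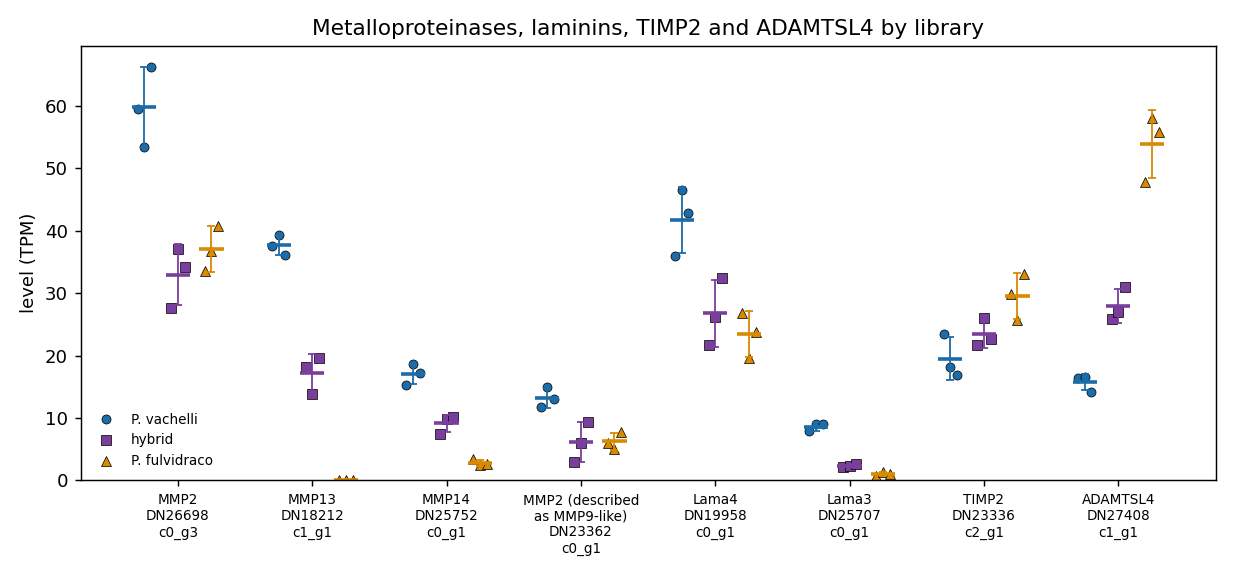
Level in TPM (linear axis from 0) of 4 metalloproteinase rows, Lama4, Lama3, TIMP2 and ADAMTSL4 in each library; symbols are libraries, ordered 1 to 3 from left to right within a group, thick bars group means and thin bars the SD of 3 libraries. P. vachelli circles lie highest in the MMP and laminin rows, and P. fulvidraco triangles lie highest in ADAMTSL4, at 47.8 to 58.1 TPM.

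Of the inhibitors, 4 TIMP rows were measured, and limma called 0 of them in either hybrid comparison. At an unadjusted p under 0.05 there was 1, higher in the hybrid than in P. fulvidraco. TIMP2, which both inhibits MMP2 and takes part in its activation (DN23336_c2_g1), stood at 23.4, 18.3 and 16.9 TPM in P. vachelli, 21.6, 26.1 and 22.7 TPM in the hybrid and 29.8, 25.7 and 33.1 TPM in P. fulvidraco. P. fulvidraco was above P. vachelli, and the hybrid overlapped both. The parents differed by -0.58 ± 0.14, P. vachelli minus P. fulvidraco (limma, adjusted p = 0.009). The matrix-bound timp3 was at 2.09 ± 0.12, 1.49 ± 0.76 and 0.903 ± 0.22 TPM, with a parental call (0.71 ± 0.24, adjusted p = 0.035) that was lost without any single parental library (adjusted p = 0.0566 to 0.104). A second TIMP2 row (DN25595_c1_g1) was at 1.55, 1.57 and 1.45 TPM in P. vachelli, 1.69, 2.56 and 2.12 TPM in the hybrid and 1.34, 0.98 and 1.25 TPM in P. fulvidraco, and was not called. TIMP4, at 0.78, 1.09 and 0.79 TPM, was not called.

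ADAMTS proteases and their relatives gave 16 rows, of which 5 were higher and 3 lower in P. vachelli than in P. fulvidraco. Of all tested rows, 27.4% were higher and 26.9% lower in P. vachelli. The hybrid had 2 higher and 1 lower against P. vachelli, and 4 higher and 1 lower against P. fulvidraco. Among all tested rows these were 15.5% and 14.6%, and 11.9% and 9.88%. ADAMTS13, the protease that trims von Willebrand factor and in mammals is made by stellate cells, stood at 35.2, 34.5 and 32.7 TPM in P. vachelli, 32.8, 30.9 and 36.1 TPM in the hybrid and 32.4, 34.6 and 34.2 TPM in P. fulvidraco. The groups overlapped, and the differences were 0.02 ± 0.08 between the parents, -0.04 ± 0.08 against P. vachelli and -0.02 ± 0.08 against P. fulvidraco. ADAMTSL4, described as thrombospondin type-1 domain-containing protein 4, was at 16.4, 16.5 and 14.2 TPM in P. vachelli, 25.9, 27.0 and 31.0 TPM in the hybrid and 47.8, 58.1 and 55.8 TPM in P. fulvidraco. The groups did not overlap, with the hybrid between the parents, and all differences were called (-1.71 ± 0.11 between the parents, limma adjusted p = 5.09e-06; hybrid minus P. vachelli 0.79 ± 0.11, adjusted p = 0.0012; hybrid minus P. fulvidraco -0.92 ± 0.11, adjusted p = 0.00086).

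Adamts2, which removes the N-propeptide of fibrillar procollagen, had the reverse order. It was at 21.2, 21.5 and 17.7 TPM in P. vachelli, 12.8, 11.7 and 14.6 TPM in the hybrid and 6.63, 4.89 and 5.56 TPM in P. fulvidraco. The groups did not overlap, and P. vachelli was higher than P. fulvidraco by 1.66 ± 0.14 (limma, adjusted p = 2.21e-05). The hybrid was lower than P. vachelli (-0.59 ± 0.14, adjusted p = 0.013) and higher than P. fulvidraco (1.07 ± 0.14, adjusted p = 0.0012). Without P. vachelli 2 the first of these had an adjusted p of 0.0506. A row named ADAMTS6 but described as ADAMTS-like protein 5 (DN26484_c0_g2) was at 9.91, 7.71 and 6.11 TPM in P. vachelli, 8.31, 7.81 and 8.45 TPM in the hybrid and 4.73, 6.55 and 6.14 TPM in P. fulvidraco. It was not called in any comparison, though the difference of the parents passed without P. vachelli 3 (adjusted p = 0.0392). With the rows named ADAMTS6 summed, P. vachelli was higher than P. fulvidraco (0.64 ± 0.20, limma adjusted p = 0.0275). The hybrid sum was also higher than that of P. fulvidraco (0.68 ± 0.20, adjusted p = 0.0392). Adamts15 (DN26759_c1_g1), a protease of aggregating proteoglycans, was at 7.65, 7.35 and 7.38 TPM in P. vachelli, 4.91, 5.9 and 7.91 TPM in the hybrid and 4.39, 4.52 and 4.81 TPM in P. fulvidraco. P. vachelli was higher than P. fulvidraco (0.60 ± 0.16, limma adjusted p = 0.012), and the hybrid libraries reached from near one parent to above the other. Without P. fulvidraco 1 and 2 that call was lost (adjusted p = 0.13).

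Genes of collagen synthesis and processing, with some of proline breakdown and export, were read from a list of symbols outside the members. Of these, 23 of 27 were measured. Between the parents 6 were higher and 4 lower in P. vachelli, and the hybrid had 3 higher and 4 lower against P. vachelli and 2 higher and 3 lower against P. fulvidraco. Among all tested rows the same calls made up 27.4% and 26.9%, then 15.5% and 14.6%, then 11.9% and 9.88%. P4HB, protein disulfide isomerase and the beta subunit of collagen prolyl hydroxylase, was below both parents in the hybrid, with 115 ± 7.9 TPM there, 206 ± 11 TPM in P. vachelli and 188 ± 24 in P. fulvidraco (limma, adjusted p = 0.00069 and 0.0029). P4HA2, an alpha subunit of the same enzyme, descended from 22.7 ± 1.1 to 11.7 ± 2.6 and 6.30 ± 1.5 TPM in P. vachelli, hybrid and P. fulvidraco. PPIB, a prolyl isomerase that folds procollagen, rose in that order, at 103 ± 4.3, 254 ± 21 and 435 ± 77 TPM, with all differences called. PRODH, which breaks down proline, was at 1.50, 10.8 and 25.3 TPM.

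Matrix genes outside the member rule, 37 of 59 symbols measured, were more often higher than lower in P. vachelli by count. Between the parents 18 were higher and 5 lower there, with a median log2 difference of 0.58 against -0.01 over all tested rows. Of all tested rows, 27.4% were higher and 26.9% lower in P. vachelli. The hybrid had 1 higher and 10 lower against P. vachelli, and 10 higher and 2 lower against P. fulvidraco. The shares over all tested rows were 15.5% and 14.6%, and 11.9% and 9.88%. These shares and the median take every row, whereas the list takes the most abundant row of a symbol. Abundant rows were called more often, 10618 of 15605 between the parents with a filter of 5 TPM. SDC3, a heparan sulfate proteoglycan of the cell surface, was at 31.4 ± 2.4, 12.3 ± 0.65 and 1.33 ± 0.24 TPM in P. vachelli, hybrid and P. fulvidraco, while its relative SDC2 was at 67.7 ± 6.3, 110 ± 6.2 and 161 ± 11 TPM. Emilin1, an elastic fibre glycoprotein, was at 15.4 ± 1.2, 9.79 ± 0.81 and 5.36 ± 0.16 TPM.

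Integrins and other matrix receptors, 18 of 27 measured, gave 2 higher and 5 lower in P. vachelli than in P. fulvidraco. All tested rows had 27.4% higher and 26.9% lower there. ITGA6, a laminin receptor subunit, was at 12.6 ± 1.6 TPM in P. vachelli, 5.54 ± 0.94 TPM in hybrids and 1.38 ± 0.35 TPM in P. fulvidraco, called in every comparison. The fibronectin receptor subunits ITGAV, at 19.2, 30.3 and 54.6 TPM, and Itga4, at 4.65, 7.82 and 12.8 TPM, had the reverse order and were also called in every comparison.

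The TGF-beta pathway, which drives collagen synthesis in stellate cells, had 18 of 23 symbols measured. Of these, 3 were higher and 5 lower in P. vachelli than in P. fulvidraco, 1 was higher and 2 lower in hybrids than in P. vachelli, and 1 was higher in the hybrid than in P. fulvidraco. For all tested rows the shares were 27.4% and 26.9%, then 15.5% and 14.6%, then 11.9% and 9.88%. SKIL, a repressor of SMAD signalling, was at 39.6 ± 7.3 TPM in P. vachelli, 7.64 ± 1.0 TPM in hybrids and 4.97 ± 0.30 TPM in P. fulvidraco. The tgfb1 row, for the ligand, was higher in the hybrid than in P. vachelli, 4.86 ± 2.7 against 1.26 ± 0.75 TPM (1.30 ± 0.39, limma adjusted p = 0.035), and its difference from P. fulvidraco, at 2.28 TPM, did not pass.

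Of other extracellular proteases and inhibitors, 19 of 26 were measured, with 6 higher and 3 lower in P. vachelli than in P. fulvidraco. Over all tested rows, 27.4% were higher and 26.9% lower there. A2M, alpha-2-macroglobulin, a broad inhibitor in plasma, was at 296 ± 74 TPM in P. vachelli, 1636 ± 164 TPM in hybrids and 1725 ± 525 TPM in P. fulvidraco. Serpinf2, the plasmin inhibitor, was at 90.5 ± 14, 235 ± 19 and 334 ± 25 TPM. CTSB, a lysosomal protease, went the other way, at 83.7 ± 3.2, 62.0 ± 4.4 and 48.5 ± 6.5 TPM.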

How the data were processed

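Liver poly(A) RNA of 3 libraries per line was sequenced in paired reads, per the labels' protocols. The authors deposited a TPM value for each assembled gene in each library. Per the submitters' processing notes cutadapt and FastQC were used. Not given in the sources used here are the aligner, the quantifier and the settings of the assembly. One extraction label speaks of adipose tissue, and the tissue label, liver, was kept. Library titles tied columns to samples.

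Rows that reached 1 TPM in 3 or more of the 9 libraries were tested with limma 3.58.1 (R 4.3.3) on log2(TPM + 1). The fit held an intensity trend, all 9 libraries and a group factor, with 6 residual degrees of freedom, and was two-sided with Benjamini-Hochberg adjustment at 0.05. TPM needed no count model. The pseudocount of 1 understates the change of low rows. A gene can have several rows, which may hold the form of 1 species, and close relatives may share reads. Symbols and descriptions are those of the deposited table. Of the 68 member symbols, 56 matched the P. vachelli gene table of RefSeq, as written or with a fish duplicate suffix, and it was used only to count genes.

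The members and lists were chosen with earlier results of these data known. In a list the row of highest mean stood for a symbol. Values per library are given in each role for the 4 rows of highest mean, the 3 of smallest adjusted p with a mean of at least 2 TPM, and rows outside the parental range at that level, with some by mean and SD. Other members named were chosen after their values were seen. Of each list, up to 4 rows of smallest p are named, and tgfb1, CTSB and the cell type markers were chosen with their values seen.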

Additional observations from a re-analysis of the deposited data

How the results depend on the processing

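Over the 42 member rows picked by mean, adjusted p or parental range, 2496 row, comparison and setting combinations were computed, of which 2317 kept direction and side of the threshold, 133 lost a call, 43 gained one and 3 reversed. The reversals came with summing the rows of a symbol, which put other rows beside the picked one: hybrid minus P. vachelli became 1.93 for FN1 DN28133_c5_g2 and 0.39 for COL6A3 DN27751_c1_g1, and P. vachelli minus P. fulvidraco became -0.53 for TIMP2 DN25595_c1_g1. That sum tests fewer units, 10815 symbols, of which 68 were matrix symbols. It gave 5251, 3302 and 2664 calls over all symbols in P. vachelli against P. fulvidraco, hybrid against P. vachelli and hybrid against P. fulvidraco. Outside the parental range were 322. Among the matrix symbols these counts were 37, 26, 21 and 3. A filter of 5 TPM left fewer rows to test, 15605, of which 51 were matrix rows. It gave 10618, 7735 and 6506 calls over these rows in the same 3 comparisons, and 30, 31 and 26 among the matrix rows. These are larger shares of the rows tested than in the main run. Outside the parental range were 3 matrix rows without the intensity trend, and 476 of all rows with only the compared groups in the fit. The cause was not tested. Without P. fulvidraco 1 and 2, where the lone library left is assumed to vary like the other groups, hybrid against P. fulvidraco had 3579 calls and 291 rows were outside the range. Among matrix rows there were then 43 calls between the parents, 16 for hybrid against P. fulvidraco and 3 outside the range. Leaving out 1 library at a time gave 24364 to 28557, 11164 to 15372 and 7312 to 10546 calls over all rows in the 3 comparisons, with 507 to 822 outside the range. Among matrix rows these were 55 to 73, 27 to 40, 28 to 45 and 3 to 10. The 10 came without hybrid 1, and 3 without hybrid 2 or P. fulvidraco 2. Deviations from the group mean gave no sign that replicate numbers pair the libraries. They correlated at -0.112 to 0.014 for same-numbered and at -0.047 to 0.073 for differently numbered libraries. With 3 libraries per group this cannot show that pairing is absent. With the replicate block, 65, 41 and 37 matrix rows were called, and 6 were outside the range. Scaling alternatives moved the median of all rows by at most -0.079 (log2). TPM give no depth, so no limit by counting error is set for rows near 0.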
